A study of Homo sapiens with 6 samples.

Results

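The kallikrein-related peptidases KLK7, KLK8, KLK10 and KLK11, the protease inhibitor SLPI and the surface protein LYPD3 form a group of 6 genes among the 14884 with a named probe set on Affymetrix Human Gene 2.0 ST arrays. They were chosen from an earlier look at the same arrays, by their lower values in NHE3kd cells, so their difference between the groups is described here without a test. SK-CO15 is an established human colonic adenocarcinoma line that expresses NHE3, the apical sodium-proton exchanger encoded by SLC9A3. The 3 NHE3kd samples (replicates 2, 3 and 10) carried a lentiviral pool of shRNAs against SLC9A3 driven by the U6 promoter, and the 3 Ctrl samples (replicates 1, 4 and 9) a scrambled shRNA. Both kinds of cells had been sorted on high EGFP, selected in puromycin, kept as mixed populations without cloning and grown to confluence. SLC9A3 was not analysed here. No source used here states that the 3 samples of a group were separate cultures, so p-values measure the spread between these samples only, which may be technical.

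Kallikrein-related peptidases are secreted serine proteases that are made as inactive precursors and can activate each other once a short propeptide has been cut off. They are best known from the outer skin, where they loosen the contacts between cells, from seminal fluid, and as serum markers of tumors, as in the case of KLK3, the prostate-specific antigen. Their genes stand side by side on chromosome 19. SLPI is a small inhibitor of leukocyte proteases that mucosal epithelia secrete, and its gene belongs to a cluster of related inhibitors on chromosome 20. LYPD3, also called C4.4A, is anchored in the membrane by glycosylphosphatidylinositol, belongs to the Ly6/uPAR family and is found in the upper layers of stratified epithelia. Its gene also lies on chromosome 19, outside the kallikrein cluster.

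Each of the 6 genes had 1 probe set. All values are on the log2 scale and are differences from the mean of the Ctrl arrays, so a value shows how far a sample lay from the control mean and not how much transcript was present. For every one of the 6 genes the 3 NHE3kd arrays lay below the 3 Ctrl arrays. The same was true of 14.7% of all named genes, and since the group was chosen on this difference nothing is read from the count. As RNA of whole cultures was measured, fewer expressing cells and less RNA per cell cannot be told apart.

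Among the proteases, KLK7 had the largest difference. KLK7 is a chymotrypsin-like enzyme of the outer skin that cuts the proteins of cell contacts. Its values were -1.54, -1.72 and -1.83 in NHE3kd 2, 3 and 10, against 0.19, 0.12 and -0.31 in Ctrl 1, 4 and 9. NHE3kd cells were thus at -1.70 ± 0.15 and Ctrl cells at 0 ± 0.27 (SD, n = 3 each), which is 3.24-fold lower, or 30.8% of the control mean. The gap between the highest NHE3kd array and the lowest Ctrl array was 1.23, which was 2.44 times the larger of the within-group ranges.

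KLK11, a trypsin-like protease also found in brain and prostate, had values of -0.91, -0.92 and -1.08 in NHE3kd cells and of -0.05, 0.17 and -0.12 in Ctrl cells. It was 1.96-fold lower, at -0.97 ± 0.09 in NHE3kd cells and 0 ± 0.15 in Ctrl cells (SD, n = 3 each). KLK10, first described as a gene of normal epithelial cells that is silenced in breast cancer cells, had values of -0.61, -0.67 and -0.43 in NHE3kd cells against -0.05, 0.01 and 0.04 in Ctrl cells. Its mean was -0.57 ± 0.12 in NHE3kd cells and 0 ± 0.04 in Ctrl cells (SD, n = 3 each), a difference of 1.48-fold. KLK10 was the only one of the 6 whose Ctrl arrays were closer together than its NHE3kd arrays. KLK8, known as neuropsin for its part in the hippocampus of mice, had values of -0.40, -0.48 and -0.60 in NHE3kd cells and of 0.02, 0.12 and -0.14 in Ctrl cells. It was 1.41-fold lower (-0.49 ± 0.10 in NHE3kd cells, 0 ± 0.13 in Ctrl cells, SD, n = 3 each). With a gap of 0.25, less than the range of its Ctrl arrays, KLK8 was the gene whose groups came closest to each other.

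SLPI was the most changed of the group. Its values were -3.05, -3.02 and -3.25 in NHE3kd 2, 3 and 10, against 0.10, 0.22 and -0.31 in Ctrl 1, 4 and 9. NHE3kd cells were at -3.11 ± 0.12 and Ctrl cells at 0 ± 0.28 (SD, n = 3 each). Its gap of 2.70 was 5.08 times the larger within-group range. The level in NHE3kd cells was 11.6% of the control mean, or 8.61-fold lower, and of all named genes only 3 had a lower fold change. LYPD3 followed, with values of -2.12, -1.97 and -1.96 in NHE3kd cells and of 0.01, 0.17 and -0.19 in Ctrl cells. At -2.02 ± 0.09 in NHE3kd cells and 0 ± 0.18 in Ctrl cells (SD, n = 3 each), it was 4.06-fold lower, and its gap of 1.77 was 4.89 times the larger range. By the size of the log2 difference, LYPD3 ranked 25th from the bottom of the named genes, KLK7 42nd, KLK11 179th, KLK10 506th and KLK8 653rd.

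**Figure D1:**
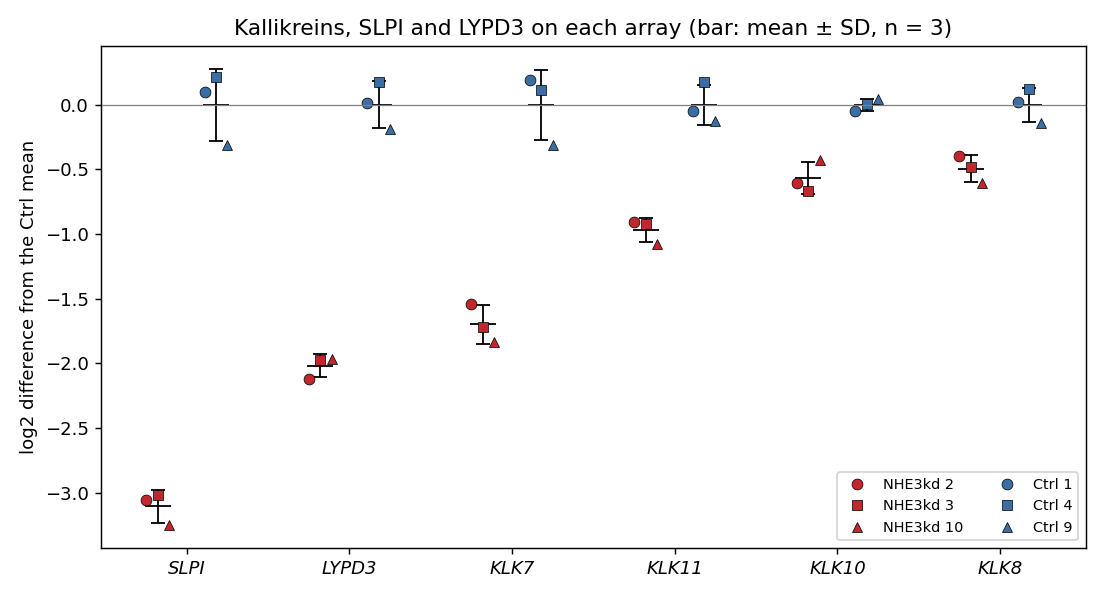
Log2 difference from the Ctrl mean (vertical axis) of each of the 6 genes (horizontal axis) on each NHE3kd array (red) and each Ctrl array (blue), with 1 marker shape per replicate and black bars for the mean and SD of n = 3. The NHE3kd arrays of SLPI lie between -3.25 and -3.02, those of KLK8 between -0.60 and -0.40, and no gene has overlapping groups.

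The order of the differences was SLPI, LYPD3, KLK7, KLK11, KLK10 and KLK8. The ranges of the NHE3kd arrays did not overlap between neighbours in this order except for KLK10 and KLK8, which differed by 0.07 in log2 fold change. These sizes are not levels, and probe sets may differ in how fully they register a change. Within the groups, the places of the arrays were shared by some of the 6 genes and not by all. Ctrl 9 was the lowest Ctrl array for 5 of them and Ctrl 4 the highest for 4, while NHE3kd 10 was the lowest NHE3kd array for 4. KLK10, with Ctrl 9 highest and NHE3kd 10 highest, went the other way in both groups, and LYPD3 also had NHE3kd 10 highest. Ctrl 9 was the lowest Ctrl array for 7 of the 12 other kallikrein genes as well. The share over all named genes was not counted, so these places are not read as a trait of the group. The mean of the 6 genes was -1.44, -1.46 and -1.53 on NHE3kd 2, 3 and 10, and 0.04, 0.13 and -0.17 on Ctrl 1, 4 and 9. The medians of all probe sets lay between -0.02 and 0.002 on the 6 arrays, which does not show the places that other lowered genes took. Without Ctrl 9 the log2 fold changes were -1.85 for KLK7, -3.26 for SLPI and -2.11 for LYPD3.

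RefSeq promoter windows on GRCh38.p14, from 250 bases before a start site to 50 after it, were at hand for 4 of the 6 genes, namely KLK7, KLK10, KLK11 and LYPD3, with 8 windows in all. The following windows, all on the minus strand of chromosome 19 and written 5′ to 3′, are shown because KLK7 was the kallikrein with the largest difference and because KLK10 and LYPD3 held the motif matches. Capitals mark matches to TTNNGNAA, a form of the motif of C/EBP factors, on either strand. The windows lie at chr19:50983766-50984065 (KLK7, the most downstream of its 3), chr19:51019812-51020111 (KLK10) and chr19:43465559-43465858 (LYPD3).
KLK7: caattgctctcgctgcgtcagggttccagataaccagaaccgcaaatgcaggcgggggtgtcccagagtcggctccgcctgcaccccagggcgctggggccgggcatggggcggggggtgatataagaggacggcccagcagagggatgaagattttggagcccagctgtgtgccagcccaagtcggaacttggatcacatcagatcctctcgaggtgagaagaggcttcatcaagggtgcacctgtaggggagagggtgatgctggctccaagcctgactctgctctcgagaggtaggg
KLK10: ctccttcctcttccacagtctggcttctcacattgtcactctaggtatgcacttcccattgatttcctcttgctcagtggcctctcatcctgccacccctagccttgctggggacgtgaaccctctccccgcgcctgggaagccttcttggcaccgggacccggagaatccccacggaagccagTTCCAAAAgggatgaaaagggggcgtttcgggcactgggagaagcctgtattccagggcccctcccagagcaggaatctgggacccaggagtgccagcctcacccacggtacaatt
LYPD3: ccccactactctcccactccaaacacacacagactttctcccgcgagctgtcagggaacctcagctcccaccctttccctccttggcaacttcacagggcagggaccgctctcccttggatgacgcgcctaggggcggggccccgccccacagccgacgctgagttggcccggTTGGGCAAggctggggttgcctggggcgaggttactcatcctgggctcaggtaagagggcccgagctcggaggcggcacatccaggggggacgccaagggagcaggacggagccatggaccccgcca

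Counted from the start site, the match began at -77 in LYPD3 and at -66 in the KLK10 window, and the other KLK10 window, which overlaps it, holds the same match. Of the 35116 windows of all genes, 36.8% held TTNNGNAA, and 3 of the 8 windows did here. The AP-1 motif TGANTCA (7.71% of all windows), the TATA box TATAAA (11.5%) and AGAACA, the core of the binding element of androgen and glucocorticoid receptors (14.8%), were searched on both strands and had no match in the 8 windows. Between 59.0% and 69.3% of the bases of a window were G or C, with a median of 62.8% against 58.7% over all windows. A match or its absence describes these letters only.

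To place the 4 proteases among their relatives, the other members of the cluster were compared between the groups. All of the 16 kallikrein genes of the cluster, the pseudogene KLKP1 included, had a named probe set, and none had several. Of the 12 other genes, 2 were lower by limma at an adjusted p under 0.05 and none was higher. Of all named genes 4.51% were lower and 9.96% higher by this test, 14.5% in all. At an unadjusted p under 0.05 there were 7 of the 12, against 32.5% of all named genes. Their median log2 fold change was -0.33, against -0.0008 for all named genes, and 10 of the 12 lay below 0. The 3 NHE3kd arrays lay below the 3 Ctrl arrays for 7 of the 12, and for 14.7% of all named genes.

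KLK4, a protease of developing tooth enamel, fell by 0.96 on the log2 scale (SE 0.15, adjusted p = 0.0195 from limma). Its values were -0.96, -1.02 and -0.88 in NHE3kd cells against 0.01, 0.29 and -0.30 in Ctrl cells. KLK1, the tissue kallikrein that releases kinins from kininogen, fell by 0.76 (SE 0.10, adjusted p = 0.013 from limma). Its values of -0.82, -0.89 and -0.59 in NHE3kd cells stood apart from -0.06, 0.15 and -0.09 in Ctrl cells. The call of KLK1 was lost without NHE3kd 3 (adjusted p = 0.0518 from limma). That of KLK4 was lost without Ctrl 1 or any single NHE3kd array (adjusted p from 0.0555 to 0.0841 from limma).

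Another 4 kallikreins were apart from Ctrl on every array but did not pass the test, with adjusted p from limma between 0.0559 and 0.13. KLK5, the trypsin-like enzyme that activates other kallikreins in skin, had a log2 fold change of -0.64 (SE 0.16). For KLK9 it was -0.62 (SE 0.17), for KLK12 -0.48 (SE 0.15) and for KLK6, a trypsin-like protease abundant in the nervous system, -0.47 (SE 0.11). Their NHE3kd arrays lay between -0.81 and -0.30. KLK5 passed without Ctrl 9 (adjusted p = 0.0103 from limma), and so did KLK12 (adjusted p = 0.0422 from limma). Ctrl 9 was the lowest Ctrl array for 7 of the 12 other kallikrein genes. KLK15 (-0.20, SE 0.06, adjusted p = 0.15 from limma) completed the 7 whose groups did not overlap. The groups overlapped for KLK3 (-0.13), KLK13 (-0.08), KLKP1 (-0.02), KLK2 (0.06), which with KLK3 is made mainly in the prostate, and KLK14 (0.11).

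In chromosomal order, the genes apart between the groups formed a run of 9 neighbours from KLK4 to KLK12. The run holds all 4 chosen kallikreins and 5 others. As the 4 were chosen on this difference, nothing is read from the length of the run. Of the 5 others only KLK4 passed the test, and 14.7% of all named genes were lower without overlap. On one side of the run stood KLKP1, KLK2 and KLK3, on the other KLK13 and KLK14, all with overlapping groups. KLK1 and KLK15, at the far end of the cluster, were again apart. Of the 5 named genes on each side of the cluster, 0 of 10 were called by limma (2 at an unadjusted p under 0.05, and 0 by the same model without moderation), with log2 fold changes from -0.20 for SYT3 to 0.01 for SIGLECL1. SYT3 was the only one of them whose groups did not overlap. The kallikrein genes resemble each other in sequence, and signal shared between their probe sets was not tested.

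**Figure D2:**
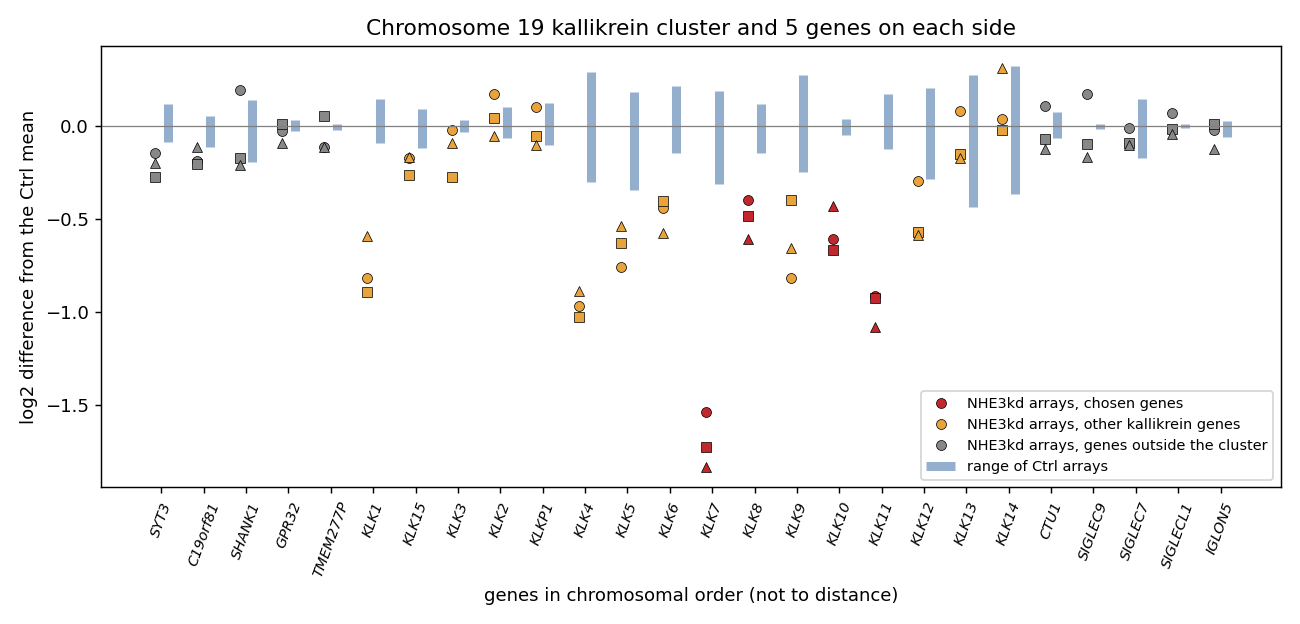
Log2 difference from the Ctrl mean (vertical axis) of the 16 kallikrein genes and of 5 named genes on each side, in chromosomal order (horizontal axis, not to distance). Markers show the NHE3kd arrays (red for the chosen genes, orange for other kallikrein genes, grey outside the cluster) and blue bars the range of the Ctrl arrays. The markers lie below the bars for all 9 genes from KLK4 to KLK12, of which 4 were chosen on this difference.

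Around SLPI on chromosome 20, 2 of the 10 nearest named genes were lower and none was higher, where 4.51% of all named genes were lower and 9.96% higher. Over the 30 neighbours of the cluster, SLPI and LYPD3 there were 3 calls, all of them lower. This share is above the 4.51% of all named genes that were lower, but it rests on 3 genes. Counted in either direction, 3 calls are a smaller share of the 30 than the 14.5% of all named genes. By the same model without moderation, 0 of the 30 were called. WFDC5, which like SLPI encodes a protein with the four-disulfide core of this inhibitor family, had values of -0.72, -0.64 and -0.67 in NHE3kd cells against -0.14, -0.01 and 0.14 in Ctrl cells, and fell by 0.67 (SE 0.08, adjusted p = 0.00835 from limma). SDC4, the heparan sulfate proteoglycan syndecan-4, fell by 0.86 (SE 0.13, adjusted p = 0.0177 from limma). It no longer passed when Ctrl 1 (adjusted p = 0.0519 from limma) or NHE3kd 10 (adjusted p = 0.0608) was removed. The genes on either side of SLPI were SEMG2 (-0.20) and MATN4 (-0.02), and neither passed the test. Around LYPD3, ETHE1, a mitochondrial enzyme of sulfide breakdown, was the only one of 10 that passed, falling by 0.87 (SE 0.18, adjusted p = 0.0405 from limma), and only the removal of Ctrl 9 kept this call, the other removals giving an adjusted p of 0.0769 to 0.135. TEX101, on the other side of LYPD3 and of the same protein family, had a log2 fold change of -0.12.

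**Figure D3:**
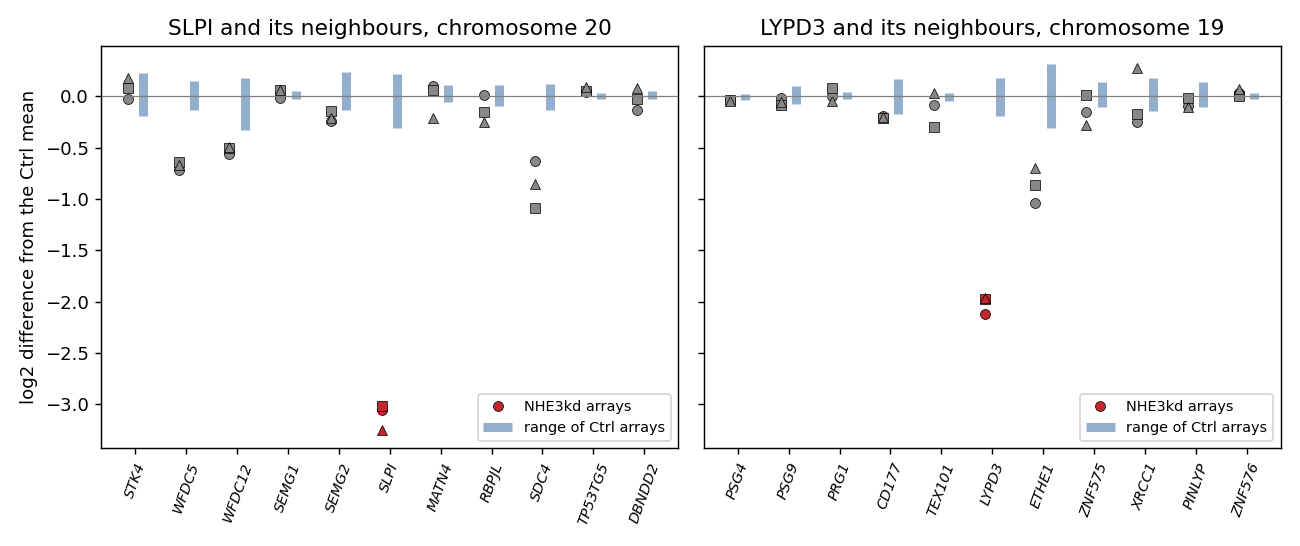
Log2 difference from the Ctrl mean (vertical axis) of SLPI (left) and LYPD3 (right) and of the 5 nearest named genes on each side in chromosomal order (horizontal axis). Red markers are the NHE3kd arrays of SLPI and LYPD3, grey markers those of their neighbours, and blue bars the range of the Ctrl arrays. The NHE3kd arrays of SLPI lie at -3.02 or lower and those of LYPD3 at -1.96 or lower, and those of the neighbours at -1.09 or higher.

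Among inhibitors, 11 of 19 listed relatives of SLPI and other members of its cluster were measured, and WFDC5 was the only one that passed. Of all named genes 14.5% passed (4.51% lower), and the lists of inhibitors are too short to tell their shares from that. WFDC3 (-0.97, SE 0.27) and WFDC12 (-0.52, SE 0.14) did not pass (adjusted p = 0.0949 and adjusted p = 0.0945 from limma), and the median of the 11 was -0.06. Without Ctrl 9 there were 2 that passed, WFDC5 and WFDC12. In the list of Kazal, Kunitz and similar inhibitors, 4 of 16 were measured, and RECK, a membrane-anchored inhibitor of matrix metalloproteinases, rose by 0.77 (SE 0.07, adjusted p = 0.00467 from limma). Its values were 0.68, 0.73 and 0.90 in NHE3kd cells against -0.03, -0.03 and 0.06 in Ctrl cells. SPINK5, the skin inhibitor of kallikreins, and the serpins were not analysed here. Of the 3 macroglobulins, 0 passed by limma (1 at an unadjusted p under 0.05, A2M, and 0 by the same model without moderation). A2ML1, a protease inhibitor of stratified epithelia, had values of -0.70, -0.78 and -1.12 in NHE3kd cells, against 0.90, 0.22 and -1.12 in Ctrl cells, and passed when Ctrl 9 was left out (-1.42, adjusted p = 0.0406 from limma).

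Of 62 other serine proteases listed, 19 were measured. ST14 was lower and HTRA1 higher, and these 2 calls are a smaller share of the 19 than the 14.5% of all named genes. ST14, the membrane protease matriptase, which can activate other proteases at the surface of epithelia, fell by 0.38 (SE 0.06, adjusted p = 0.0166 from limma), a call that was lost without NHE3kd 2 or NHE3kd 3 (adjusted p up to 0.0737). HTRA1, a secreted protease of the matrix, rose by 0.69 (SE 0.09, adjusted p = 0.0128 from limma). Of 16 listed serine proteases of leukocytes, a class that includes targets of SLPI, 10 were measured. Granzyme M (GZMM) was lower (-0.46, SE 0.07, adjusted p = 0.0158 from limma) and none was higher. Its call was lost without Ctrl 4, NHE3kd 2 or NHE3kd 10 (adjusted p up to 0.0661). CTSG, which encodes cathepsin G, a target of SLPI, had a log2 fold change of 0.002 (SE 0.05).

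Of 33 listed genes reported as substrates or receptors of kallikreins, 20 were measured. Of these, 3 were lower, 1 was higher and 16 did not pass, with a median of -0.08, where 14.5% of all named genes were called. The count is thus near that of genes at large, but among those lower calls (4.51%) were fewer than higher ones (9.96%). Fibronectin (FN1), a protein of the matrix, had values of -2.76, -2.97 and -2.18 in NHE3kd cells against 0.48, 0.18 and -0.65 in Ctrl cells and fell by 2.64 (SE 0.35, adjusted p = 0.0127 from limma). The adhesion molecule L1CAM fell by 0.47 (SE 0.08, adjusted p = 0.0221 from limma). ST14, given above, was the third. IGFBP3, a binding protein of insulin-like growth factors, rose by 0.89 (SE 0.09, adjusted p = 0.00641 from limma). Corneodesmosin (CDSN), a skin substrate of KLK7, was at -0.67 (SE 0.17) and did not pass (adjusted p = 0.076 from limma), while DSG1 and DSC1, cadherins of skin desmosomes cut by kallikreins, were at 0.03 and -0.04. FN1 did not pass when Ctrl 4 or NHE3kd 3 was left out (adjusted p = 0.0553 and adjusted p = 0.0556 from limma), nor L1CAM when Ctrl 1, Ctrl 4, NHE3kd 2 or NHE3kd 3 was (adjusted p from 0.06 to 0.0813). The count of 4 was 6 without Ctrl 9, 2 without Ctrl 4 or NHE3kd 2, and 1 without NHE3kd 3, when only IGFBP3 passed.

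In the Ly6/uPAR family, 20 of the 35 listed relatives of LYPD3 were measured, of which 2 were lower, 1 was higher and 17 did not pass. This is about the share called among all named genes (14.5%), where lower calls (4.51%) were fewer than higher ones (9.96%). LYPD5, on chromosome 19 like LYPD3, had values of -0.84, -0.92 and -0.69 in NHE3kd cells and of 0.06, 0.08 and -0.15 in Ctrl cells, and fell by 0.82 (SE 0.09, adjusted p = 0.00738 from limma). GPIHBP1, which holds lipoprotein lipase on capillary walls, fell by 0.30 (SE 0.06, adjusted p = 0.0324 from limma), and LYPD6, a modulator of Wnt receptors, rose by 0.28 (SE 0.04, adjusted p = 0.0178 from limma). Of these, only LYPD5 passed without Ctrl 4 or any single NHE3kd array. Of 9 listed genes reported as partners of LYPD3, 5 were measured. The sheddase ADAM17 was lower (-0.82, SE 0.09, adjusted p = 0.00669 from limma), whereas AGR2 (-0.07) and AGR3 (0.02), reported ligands of LYPD3, did not pass the test. The estrogen and progesterone receptors ESR1 (-0.04), ESR2 (-0.01) and PGR (0.01) did not pass either, with 0 of 3 at an unadjusted p under 0.05 by limma and 0 called by the same model without moderation.

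As several of the 6 genes are known from stratified epithelia, markers of cell types were compared as well. Measured were 22 of 28 listed markers of stratified epithelium, 16 of 21 of colonocytes and 9 of 20 of leukocytes, stroma and endothelium. Of 22 markers of stratified epithelium 6 were lower and 0 were higher, with a median of -0.25, where 4.51% of all named genes were lower and 9.96% higher. The lower ones were the keratins KRT16 (-1.84) and KRT6C (-0.29), SPRR1A (-1.83), SPRR1B (-1.45) and cornifelin (CNFN, -1.58), which are proteins of the cornified envelope, and the desmosomal cadherin DSG3 (-0.93). Their adjusted p from limma lay between 0.0071 for SPRR1A and 0.0371 for SPRR1B. The basal keratins KRT5 (0.08) and KRT14 (-0.31) and the suprabasal KRT1 (0.01) and KRT10 (0.07) did not pass. Among other markers that did not pass, SBSN (-1.23, adjusted p = 0.0698 from limma), KRT15 (-0.44) and IVL (-0.39) had NHE3kd arrays below all Ctrl arrays. DSC3 (0.37) and KRT13 (0.23) had NHE3kd arrays above all Ctrl arrays, and did not pass either. Of 16 markers of colonocytes the brush border protein villin (VIL1, 0.77) was higher and none was lower, with a median of -0.03, and CDX2 (-0.12), KRT8 (0.04) and EPCAM (0.02) did not pass. KRT20, a keratin of mature colonocytes, had the largest difference of the list, with values of -0.95, -0.95 and -0.68 in NHE3kd cells against -0.26, -0.24 and 0.49 in Ctrl cells, and did not pass (-0.86, SE 0.22, adjusted p = 0.0814 from limma). TFF3 (-0.29) and CEACAM7 (-0.13) also had NHE3kd arrays below all Ctrl arrays without passing. Of 9 markers of leukocytes, stroma and endothelium CD68 was lower (-1.51) and LYZ higher (0.92). The calls of markers were not repeated with an array left out or under other settings, so how stable they are was not examined. Since the values are centred, they show no presence or absence of a marker, and the part of these markers in the differences of the 6 genes was not tested.

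**Figure D4:**
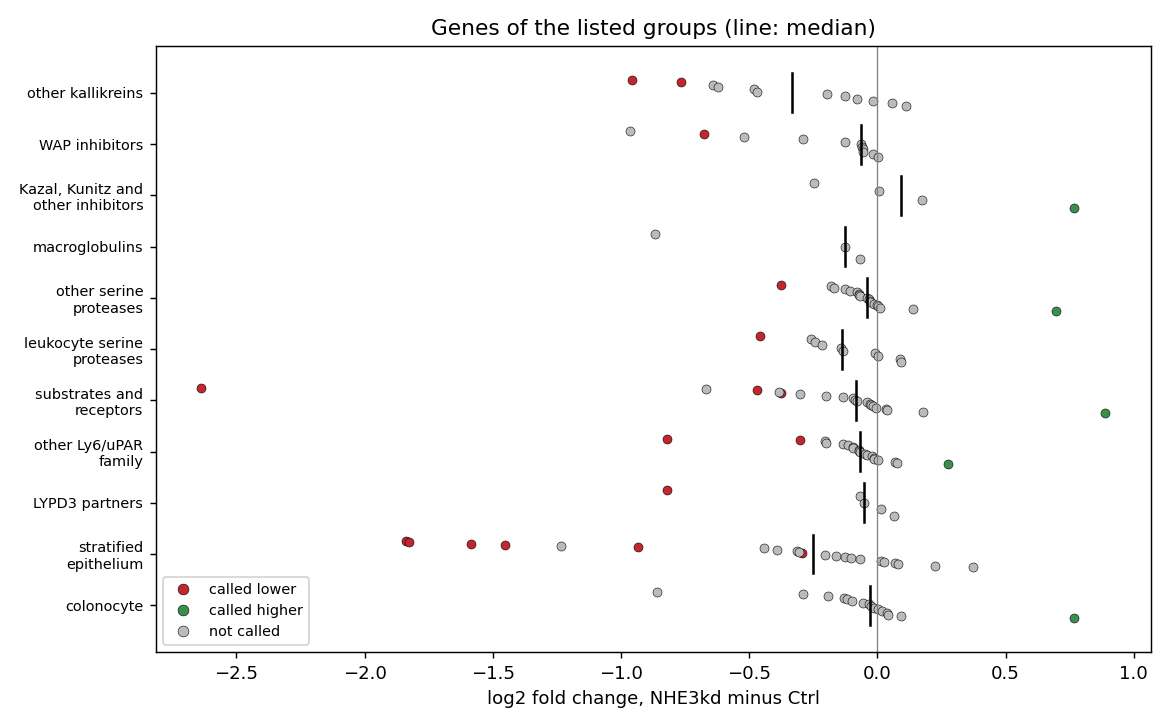
Log2 fold change, NHE3kd minus Ctrl (horizontal axis), of each measured gene of the listed groups (rows), with a black line at the median of the group. Red points were lower and green points higher at an adjusted p under 0.05 from limma, and grey points did not pass; the other kallikrein genes lie between -0.96 and 0.11, with 2 red points and no green one.

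The named genes with the most similar values over the 6 arrays, by Euclidean distance, were mostly not proteases. The nearest to SLPI were the metalloproteinase MMP10 (distance 0.61), ACP7 (0.66) and the hyaluronan synthase HAS2 (0.69). Nearest to LYPD3 were HLA-F-AS1 (0.38), TMEM158 (0.43) and MIRLET7A2 (0.55), and nearest to KLK7 were NUDT6 (0.28), CPEB2 (0.35) and GM2A (0.40). KLK11 was closest to PPBP (0.13), which encodes a platelet chemokine, PLEK2 (0.20) and TSPAN1 (0.24). For KLK10 the interferon factor IRF9 (0.09), FOS (0.12) and the kinase GSK3B (0.12) came first, and for KLK8 ATP13A2 (0.10), MAP3K6 (0.11) and KIF1C (0.12). No gene of the 6 was among the 3 nearest of another. The distance depends on the size of the change, and genes with small changes have many near neighbours.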

How the data were processed

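Total RNA of 3 NHE3kd and 3 Ctrl samples of SK-CO15 cells was hybridised to Affymetrix Human Gene 2.0 ST arrays, 1 per sample. The deposited log2 values were made by the authors with RMA16 in GeneSpring GX (version not given in the sources used here), which gives 1 value per probe set, and were centred on the mean of the Ctrl arrays, which lay within 1.27e-06 of 0 for every probe set. The genome build in the submitters' processing notes is hg19. No scanner files were used, so levels, dim probe sets and batches could not be examined. Precision is limited by there being 3 arrays in a group.

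Of 48144 probe sets 16098 had 1 gene symbol from the platform's annotation, updated through RefSeq, none had several and 32046 were unnamed. These gave 14884 genes, of which 779 had several probe sets and were represented by their mean. Gene order came from RefSeq on GRCh38.p14. NHE3kd was compared with Ctrl by the moderated, two-sided test of limma 3.58.1, run under R 4.3.3 on all probe sets without covariates, with Benjamini-Hochberg adjustment and a threshold of 0.05. A gene's mean was tested with the prior of that fit, and its p placed on the adjustment curve. The fit was tested on simulated data with 200 changed probe sets. Motifs were searched as stated beside the sequences. No protein sequences were used.

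The 6 genes and the lists were chosen with earlier results of these data known. Named are the 6 genes, all other kallikrein genes, from each list up to 5 genes that passed, taken by size of change (failing any, those with the 2 lowest p-values), neighbours that passed and the 3 nearest genes of each of the 6. Other genes of the lists and the markers were named after their values were seen. Alternatives were the same model without moderation, arrays weighted by quality, subtraction of each array's median, quantile normalization, a fit on the named probe sets alone, the median of a gene's probe sets, and each array left out in turn.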

Additional observations from a re-analysis of the deposited data

How the results depend on the processing

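The 6 genes stayed lower in NHE3kd cells when arrays were weighted, when array medians were equalised, after quantile normalization and without any single array. Quantile normalization, which gives all 6 arrays the same averaged distribution and so widens the Ctrl arrays and narrows the NHE3kd arrays, moved the log2 fold changes to -1.14 for KLK7, -0.39 for KLK8, -0.40 for KLK10, -0.72 for KLK11, -2.00 for SLPI and -1.35 for LYPD3. Leaving out each array in turn gave -1.85 to -1.60 for KLK7, -3.26 to -3.00 for SLPI and -2.11 to -1.93 for LYPD3. The count of differentially expressed probe sets, 4206 with all arrays, was 840 without moderation, 478 after quantile normalization and 1685 to 3682 with an array left out. That of named genes, 2154 with all arrays, was 430, 279 and 895 to 1918 under the same changes. Among the other kallikrein genes the count of 2 was 4 with array weights, 5 with named probe sets only and 0 to 4 with an array left out. The model without moderation and quantile normalization each left 0 calls among the other kallikrein genes, the relatives of SLPI, the other serine proteases, the leukocyte proteases, the substrates and receptors, the Ly6/uPAR family, the partners of LYPD3 and the genomic neighbours. With an array left out, the counts were 1 to 2 for the relatives of SLPI, 0 to 1 for macroglobulins, 1 to 2 for other serine proteases, 0 to 1 for leukocyte proteases, 1 to 6 for substrates and receptors, 1 to 2 for the Ly6/uPAR family and 1 to 4 for genomic neighbours. RECK kept its call under every alternative run. The lists of cell type markers were not run under the alternatives. No paired analysis was possible because NHE3kd and Ctrl samples share no replicate number. The centred values hold no signal over background, so dim probe sets could not be told from bright ones.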
